A study of Drosophila melanogaster with 15 samples.

Results

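The passage of the *Drosophila melanogaster* midgut from the late L2 to the early L3 larval instar was examined by comparing 5 mRNA libraries of early L3 midguts with 5 of late L2 midguts. All 10 libraries came from w1118 larvae, a white-eyed laboratory strain, reared at 25 °C on a diet of yeast alone in vials seeded with 40 embryos. Late L2 larvae were collected 3 days and early L3 larvae 4 days after egg laying, and each library pooled 30 late L2 or 10 early L3 midguts of larvae whose sex was not determined. The series holds 5 further libraries of early L2 midguts, 2 days after egg laying, which are quoted below only as a point of reference. Staging and age move together, so that the molt, the extra day of growth and the number of guts pooled cannot be told apart.

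Transcript levels were deposited as counts scaled to a common library total (CPM) for 12133 entries. The 9619 entries that reached 0.5 CPM in at least 1 of the 10 libraries were tested, 269 of them transposable element copies and 200 of them long noncoding RNAs. Of these, 9037 passed this minimum in both stages, 288 only through late L2 and 294 only through early L3. The 10 libraries held between 26457135 and 33902298 reads by the recovered totals. Each library is a separate pool of midguts, and the sources used here do not say whether the pools of a stage came from separate vials or days, so that p-values measure the spread between these pools. Whole midguts carry their visceral muscle, attached tracheae and nerve endings. Fewer cells of a type and less RNA per cell cannot be told apart in such bulk RNA.

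Larval growth is punctuated by molts, in which a pulse of 20-hydroxyecdysone binds its nuclear receptor, a heterodimer of EcR and Usp, and starts a cascade of transcription factors. Epithelia that face the outside, including the epidermis, tracheae, foregut and hindgut, then secrete a new chitinous cuticle under the old one. The midgut itself bears no cuticle. Its enterocytes secrete digestive enzymes and a chitin-containing peritrophic matrix, absorb sugars, amino acids and lipids, and grow by enlarging polyploid cells. Midgut identity was checked from brush border and junction markers. *Myo61F* was at 1484 ± 51.1 and 1477 ± 94.9 CPM (log2 fold change -0.0081 on the CPM scale and 0.12 on the median-ratio scale). *mesh* was at 705 ± 36.4 and 747 ± 30.1 CPM (log2 fold change 0.084 on the CPM scale and 0.21 on the median-ratio scale) and *Myo31DF* at 402 ± 13.7 and 412 ± 32 CPM (log2 fold change 0.032 on the CPM scale and 0.16 on the median-ratio scale). None of these 3 was called on either scale. Of the 11 such markers tested, 1 rose and 2 fell on the CPM scale. In median-ratio units 2 rose and 2 fell, with median log2 fold changes of -0.0081 (CPM) and 0.12 (median ratio). Rises were 9.09% and 18.18% of these markers, beside 6.45% and 9.5% of all transcripts (CPM and median ratio). Falls were 18.18% on either scale, beside 18.8% and 13.6%, so that the counts do not show these markers to be steadier than other transcripts. The falls on both scales were in *alphaTry*, a trypsin, and in *Cad99C*, a cadherin of the brush border that was low and went from 3.35 ± 1.02 to 1.41 ± 0.623 CPM. The summed level of these markers ran from 3618 to 3896 CPM in late L2 and from 3546 to 4076 CPM in early L3.

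A transcript is said to have risen or fallen where limma, fitted with an intensity trend on log2(CPM + 0.5), gave a Benjamini-Hochberg adjusted p under 0.05 and its log2 fold change was 0.5 or more in either direction. The added 0.5 CPM shrinks the fold changes of the lowest transcripts. With no minimum fold change, 54.2% of transcripts passed the adjusted p on either scale. The 5 libraries of one stage all lay beyond the 5 of the other for 40.6% on the CPM scale, 11.9% above and 28.7% below, and for 40.7% on the median-ratio scale, 19.2% above and 21.4% below. On the CPM scale 620 transcripts rose (6.45%) and 1813 fell (18.8%). After each library was divided by its median-ratio size factor, which centres the bulk of transcripts at no change, 914 rose (9.5%) and 1311 fell (13.6%). Size factors lay between 1.016 and 1.084 in late L2 and between 0.944 and 0.988 in early L3, so that the median log2 fold change of all 9619 transcripts was -0.11 on the CPM scale and 0.006 on the median-ratio scale. Dividing a library by its size factor moves its transcripts together, so that opposite calls on the scales could hardly arise. In the calls, 620 rose and 1311 fell on both, 502 fell on the CPM scale only and 294 rose on the median-ratio scale only. The share of rises among all changes was therefore 25.48% on the CPM scale and 41.08% on the median-ratio scale. It was 41.66% with TMM factors and 47.67% after quantile normalization, and edgeR and DESeq2 on the recovered reads gave 41.5% and 41.79%.

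**Figure D1:**
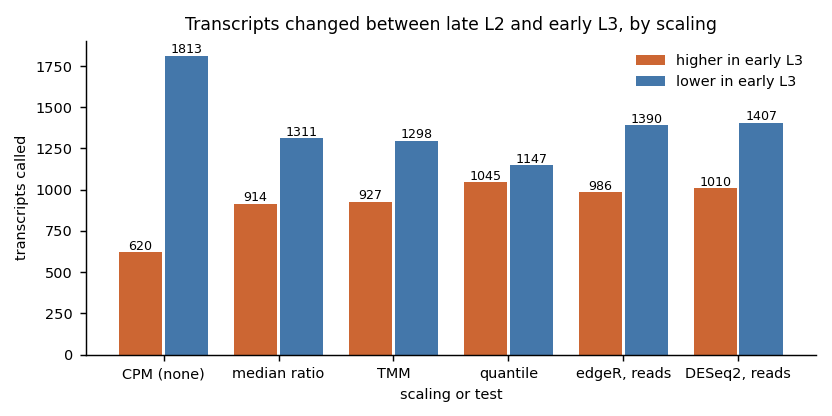
Numbers of transcripts (y axis) that rose or fell between late L2 and early L3 under each scaling or test (x axis), with 5 libraries per stage. Without scaling beyond CPM, 620 rose and 1813 fell, and with median-ratio factors 914 rose and 1311 fell, whereas quantile normalization gave 1045 and 1147.

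The share of reads held by the most abundant entries differed between stages only where many entries were summed. The 100 most abundant entries took 39.4 ± 0.72% of a late L2 library and 41.1 ± 0.86% of an early L3 library (SD, n = 5 per stage, exact 2-sided permutation p = 0.0159). For the 10 most abundant the difference, early L3 minus late L2, was -0.754 percentage points (exact permutation p = 0.167), for the 50 most abundant 0.827 (exact permutation p = 0.143) and for the 500 most abundant 1.64 (exact permutation p = 0.00794, the smallest possible). Entries higher in early L3 together gained 13.0 percentage points of the reads. Among the 10 largest gains were the serine proteases *Jon65Aiv*, *CG18180*, *Jon25Biii*, *CG18179* and *Jon66Ci*, the lysosomal mannosidases *LManVI* and *LManV*, the lysozyme *LysD*, the acyl-CoA-binding protein *Acbp6* and the lipase *mag*. The largest losses were in *mt:lrRNA*, *mt:CoI*, *mt:Cyt-b* and *mt:CoIII* of the mitochondrial genome, in the elongation factors *eEF1alpha1* and *eEF2*, and in *Hsc70-4*, *sesB*, *sta* and *RpL3*. The 13 mitochondrial genome entries took 11.4 ± 0.893% of late L2 reads and 9.06 ± 0.402% of early L3 reads, and none was called on either scale.

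A pair of libraries stood between the stages, each nearer to its own. On the first principal component, which carried 65.43% of the variance, late L2 replicate 4 lay at -23.28 against -41.72 to -34.27 for the other late L2 libraries, and early L3 replicate 1 lay at 17.22 against 31.25 to 46.72. Of the 2753 transcripts called on the CPM scale without both, late L2 replicate 4 lay beyond its stage mates toward early L3 in 1610 (58.48%) and away from it in 133 (4.831%). Early L3 replicate 1 lay beyond its mates toward late L2 in 1210 (43.95%) and away from it in 147 (5.34%). At the median of these transcripts, late L2 replicate 4 lay 22.08% of the way to the other stage and early L3 replicate 1 18.98%. Without this pair, 686 transcripts rose and 2067 fell on the CPM scale, and 1029 rose and 1456 fell on the median-ratio scale.

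The Osiris genes, which encode insect-specific transmembrane proteins expressed when cuticle-forming epithelia shape their apical surface, showed the steepest falls. Of the 11 family members in the table, 9 passed the minimum, 2 of them only through late L2, and these 9 fell on both scales, with a median log2 fold change of -5.22 on the CPM scale and -5.14 on the median-ratio scale. Their summed level in early L3 was 1.975% of that in late L2 on the CPM scale and 2.13% on the median-ratio scale. Falls made up 18.8% (CPM) and 13.6% (median ratio) of all transcripts. *Osi19*, in replicate order 1 to 5 here and below, was at 39.6, 67.6, 89.8, 43.2 and 45.6 CPM in the late L2 libraries. *Osi19* in early L3 stood at 3.83, 0, 0, 0 and 0 CPM. For *Osi19* the log2 fold change was -6.15 on the CPM scale (limma adjusted p = 1.48e-05) and -6.08 on the median-ratio scale (limma adjusted p = 1.76e-05). The only early L3 library with reads for it was replicate 1, without which the CPM-scale value was -6.78, and the stages did not overlap. *Osi6* was at 25.1, 113, 57, 14.7 and 57.5 CPM in the late L2 libraries. *Osi6* in early L3 stood at 2.11, 0, 0, 0.0319 and 0 CPM. Here too replicate 1 held most of the remaining early L3 signal, and late L2 replicate 4 was the lowest of its stage. *Osi18* fell from 48.7 ± 15.3 to 0.898 ± 2.01 CPM (log2 fold change -5.90 on the CPM scale and -5.83 on the median-ratio scale). *Osi9* fell from 42.6 ± 18 to 0.766 ± 1.71 CPM (log2 fold change -5.71 on the CPM scale and -5.63 on the median-ratio scale). *Osi7* fell from 29.8 ± 18.6 to 0.356 ± 0.797 CPM (log2 fold change -5.22 on the CPM scale and -5.14 on the median-ratio scale). All 3 had reads in a single early L3 library, replicate 1. *Osi2*, which fell from 4.9 ± 2.76 to 0.712 ± 1.43 CPM (log2 fold change -2.50 on the CPM scale and -2.43 on the median-ratio scale), was the member whose stages overlapped. In early L2, *Osi19* averaged 37.2 CPM and *Osi6* 48 CPM. The Osiris genes lay together with 3 neighbours, *CG31559*, *NPFR* and *CG46026*, in a run of 12 protein-coding genes that were consecutive among the tested entries, though not on the chromosome, where untested genes lie between them. All 12 fell on both scales, on chromosome 3R from 6150116 to 6337196 (BDGP6.54, Ensembl 115). This was the longest of 20 runs of at least 4 neighbours called in the same direction. The run and its neighbours were chosen after their values were seen, and the calls of *CG31559* and *NPFR* were each lost on the median-ratio scale when any of 5 single libraries was left out.

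Most tested transcripts of the apical extracellular matrix fell as well, beside 18.8% (CPM) and 13.6% (median ratio) of all transcripts. Among the zona pellucida domain and apical matrix proteins, 14 of 15 passed the minimum, 3 of them only through late L2. Of these 14, 0 rose and 11 fell on the CPM scale. By median ratio, 0 rose and 11 fell, with median log2 fold changes of -1.40 (CPM) and -1.34 (median ratio). *neo*, a zona pellucida protein that shapes larval denticles, was at 21.9, 26.5, 14.7, 6.22 and 23.2 CPM in the late L2 libraries. *neo* in early L3 stood at 3.33, 0, 0.363, 0.191 and 0.118 CPM. For *neo* the log2 fold change was -4.20 on the CPM scale (limma adjusted p = 8.1e-05) and -4.11 on the median-ratio scale (limma adjusted p = 9.9e-05), with late L2 replicate 4 the lowest of its stage and early L3 replicate 1 the highest of its own. *dyl*, its relative dusky-like, fell from 12 ± 7.03 to 0.466 ± 0.904 CPM (log2 fold change -3.86 on the CPM scale and -3.78 on the median-ratio scale). *uif* (uninflatable), an apical transmembrane protein of tracheae and epidermis, fell from 47.9 ± 17.9 to 7.05 ± 4.76 CPM (log2 fold change -2.76 on the CPM scale and -2.63 on the median-ratio scale). The giant matrix protein *dpy* (dumpy) fell from 30.4 ± 2.27 to 17.3 ± 2.69 CPM (log2 fold change -0.81 on the CPM scale and -0.68 on the median-ratio scale), and its stages did not overlap.

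Structural cuticle proteins, which bind chitin in the exoskeleton, were low in both stages. Of those in the table, 37 of 55 passed the minimum, and of these 3 rose and 21 fell on the CPM scale. After median-ratio scaling 4 rose and 21 fell, with median log2 fold changes of -0.72 (CPM) and -0.70 (median ratio). Of these, 11 passed only through late L2 and 4 only through early L3. Among the 22 that passed in both stages, 2 rose and 12 fell on the CPM scale and 3 rose and 12 fell on the median-ratio scale. Rises were 6.45% and 9.5% of all transcripts, and falls 18.8% and 13.6%. The summed level of the list was highest in late L2 replicate 4, at 388 CPM, against 159 to 296 CPM in its stage mates. *Lcp65Ag2*, a larval cuticle protein, was at 4.03, 14.1, 10.1, 13.1 and 10.7 CPM in the late L2 libraries. *Lcp65Ag2* in early L3 stood at 0.627, 0.0332, 0.0363, 0.574 and 0.0295 CPM. For *Lcp65Ag2* the log2 fold change was -3.83 on the CPM scale (limma adjusted p = 1.43e-05) and -3.75 on the median-ratio scale (limma adjusted p = 1.76e-05), and the stages did not overlap. *Cpr65Ea* was at 3.11, 9.37, 13.8, 15.2 and 11.5 CPM in the late L2 libraries. *Cpr65Ea* in early L3 stood at 0, 0, 0.0363, 0.0638 and 0 CPM, and early L3 held at most 3 reads in all, so that no fold change is given. *Cpr78Ca* moved the other way, at 0, 0.0756, 0, 0 and 0.142 CPM in the late L2 libraries. *Cpr78Ca* in early L3 stood at 1.49, 1.73, 1.96, 1.37 and 1.68 CPM.

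Chitin enzymes followed in part. All 30 chitin synthesis and modification genes passed the minimum, 1 of them only through early L3. Of these 30, 2 rose and 15 fell on the CPM scale. With median-ratio factors 4 rose and 13 fell, with median log2 fold changes of -0.56 (CPM) and -0.44 (median ratio). Among all transcripts, rises were 6.45% and 9.5% and falls 18.8% and 13.6%. The cuticle organizer *obst-A* was at 14.1, 15.7, 15, 7.53 and 16.5 CPM in the late L2 libraries. *obst-A* in early L3 stood at 2.28, 0.598, 0.691, 0.829 and 0.501 CPM. For *obst-A* the log2 fold change was -3.33 on the CPM scale (limma adjusted p = 1.31e-05) and -3.23 on the median-ratio scale (limma adjusted p = 1.46e-05). *serp* (serpentine), a secreted chitin deacetylase of tracheae and epidermis, fell from 19.6 ± 4.89 to 5.46 ± 1.02 CPM (log2 fold change -1.73 on the CPM scale and -1.60 on the median-ratio scale). Its relative *verm* (vermiform) fell from 29.5 ± 8.58 to 8.84 ± 1.35 CPM (log2 fold change -1.64 on the CPM scale and -1.52 on the median-ratio scale). *kkv*, the chitin synthase of cuticle-forming tissues, fell from 7.89 ± 1.79 to 3.02 ± 0.491 CPM (log2 fold change -1.23 on the CPM scale and -1.12 on the median-ratio scale). *verm* and *kkv* were named after their values were seen. *Hexo1*, a hexosaminidase that cleaves chitin oligomers, rose from 216 ± 13.3 to 385 ± 26.8 CPM (log2 fold change 0.84 on the CPM scale and 0.97 on the median-ratio scale). Of the mucins and peritrophic matrix proteins, *Muc55B* rose from 1265 ± 122 to 2352 ± 159.5 CPM (log2 fold change 0.90 on the CPM scale and 1.03 on the median-ratio scale), whereas *Muc96D*, the most abundant, was at 5187 ± 774 and 4671 ± 398 CPM (log2 fold change -0.14 on the CPM scale and -0.014 on the median-ratio scale) and was not called.

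Tracheal markers overlapped with these lists. Shares of all transcripts were 6.45% (CPM) and 9.5% (median ratio) for rises and 18.8% and 13.6% for falls. All 14 markers passed the minimum, 1 of them only through late L2. Of these 14, 1 rose and 9 fell on the CPM scale. The median-ratio counts were 1 rise and 8 falls, with median log2 fold changes of -0.94 (CPM) and -0.82 (median ratio). Their summed level ran from 215 to 382 CPM in late L2 and from 92.9 to 135 CPM in early L3, but 9 of the 14 markers, *Osi17*, *Osi18* and *Osi19* among them, also belong to the lists above, and 8 of these 9 fell on both scales. Of the 5 others, 1 rose and 1 fell on the CPM scale and 1 rose and 0 fell on the median-ratio scale. The defining tracheal factor *trh* (trachealess) went from 3.99 ± 0.515 to 2.7 ± 1.01 CPM and was called on the CPM scale only, a call lost when any of 6 single libraries was left out. *btl* (breathless), the tracheal FGF receptor, rose from 2.94 ± 0.646 to 4.87 ± 0.825 CPM (log2 fold change 0.65 on the CPM scale and 0.76 on the median-ratio scale). The part of attached tracheae, foregut or hindgut in these falls was not tested. Among foregut and hindgut markers, *Gld* (glucose dehydrogenase) fell from 4.59 ± 1.73 to 0.267 ± 0.431 CPM (log2 fold change -2.78 on the CPM scale and -2.70 on the median-ratio scale). *drm*, at 22.8 ± 2.08 and 16.9 ± 2.07 CPM (log2 fold change -0.43 on the CPM scale and -0.30 on the median-ratio scale), and *bowl*, at 39.7 ± 4.0 and 36.2 ± 2.2 CPM (log2 fold change -0.13 on the CPM scale and 0.0032 on the median-ratio scale), were not called.

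Further genes with the largest falls included *CG14423*, which fell from 69.4 ± 27.4 to 1.31 ± 1.85 CPM (log2 fold change -5.81 on the CPM scale and -5.73 on the median-ratio scale). *CG14147* fell from 53.4 ± 28 to 2.36 ± 5.27 CPM (log2 fold change -5.61 on the CPM scale and -5.53 on the median-ratio scale) and *CG13048* fell from 34.1 ± 15.3 to 0.70 ± 1.53 CPM (log2 fold change -5.34 on the CPM scale and -5.27 on the median-ratio scale). *ect* (ectodermal) fell from 68.3 ± 19.3 to 3.39 ± 5.35 CPM (log2 fold change -4.86 on the CPM scale and -4.75 on the median-ratio scale). *Cpr64Ab*, a cuticle protein, fell from 31.6 ± 16.6 to 1.48 ± 3.21 CPM (log2 fold change -4.91 on the CPM scale and -4.83 on the median-ratio scale) and kept its highest early L3 level in replicate 1. *CG9411* was at 7.34, 42.8, 28.3, 5.47 and 18.8 CPM in the late L2 libraries. *CG9411* in early L3 stood at 0.099, 0, 0, 0.0638 and 0 CPM. Without early L3 replicate 1, the CPM-scale log2 fold change was -6.53 for *CG14147*, -5.93 for *CG13048* and -5.5 for *ect*. *CG3108*, a predicted metallocarboxypeptidase chosen after its values were seen, ranged from 1.47 to 16.1 CPM in late L2 and held no read in any early L3 library, at least 339-fold lower against a floor of 3 reads over the group. No transcript showed the reverse, from 0 reads in all late L2 libraries to at least 1 CPM in every early L3 library.

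Hormone genes moved in both directions, and many were not called. Across all transcripts, 6.45% rose and 18.8% fell on the CPM scale, and 9.5% rose and 13.6% fell by median ratio. Among the ecdysone receptor, import and conversion genes, 10 of 12 passed the minimum, 1 of them only through late L2. Of these 10, 4 rose and 2 fell on the CPM scale. Scaled by median ratio, 4 rose and 2 fell, with median log2 fold changes of 0.44 (CPM) and 0.55 (median ratio). *Oatp74D*, the membrane importer of ecdysone, was at 5.32, 5.48, 5.68, 10.1 and 7.93 CPM in the late L2 libraries. *Oatp74D* in early L3 stood at 35, 55.2, 41.7, 59.5 and 41.3 CPM. For *Oatp74D* the log2 fold change was 2.68 on the CPM scale (limma adjusted p = 1.2e-05) and 2.81 on the median-ratio scale (limma adjusted p = 1.11e-05). *shd* (shade), the 20-hydroxylase that converts ecdysone to its active form, was at 24.4, 18.3, 13.7, 20.4 and 18.8 CPM in the late L2 libraries. *shd* in early L3 stood at 62.3, 91, 72.8, 94.9 and 79.9 CPM. For *shd* the log2 fold change was 2.05 on the CPM scale (limma adjusted p = 1.24e-05) and 2.17 on the median-ratio scale (limma adjusted p = 1.11e-05), and for both genes the lowest early L3 library, replicate 1, exceeded the highest late L2 library. *EcR* rose from 11.4 ± 2.36 to 17.9 ± 3.81 CPM (log2 fold change 0.63 on the CPM scale and 0.75 on the median-ratio scale) with overlapping stages, and *usp* was at 23.7 ± 0.887 and 28.3 ± 2.27 CPM (log2 fold change 0.25 on the CPM scale and 0.37 on the median-ratio scale) and was not called. The ecdysone-inactivating hydroxylase *Cyp18a1* was low and fell from 0.775 ± 0.266 to 0.197 ± 0.194 CPM (log2 fold change -0.89 on the CPM scale and -0.83 on the median-ratio scale). *Cyp301a1* fell from 3.59 ± 0.864 to 1.01 ± 0.367 CPM (log2 fold change -1.44 on the CPM scale and -1.33 on the median-ratio scale).

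Among ecdysone-induced transcription factors and early genes, 21 of 23 passed the minimum, 3 of them only through late L2. Of these 21, 2 rose and 11 fell on the CPM scale. Median-ratio scaling gave 2 rises and 9 falls, with median log2 fold changes of -0.63 (CPM) and -0.51 (median ratio). For all transcripts the shares were 6.45% and 9.5% for rises and 18.8% and 13.6% for falls. *Hr4*, a nuclear receptor of the ecdysone cascade, was at 29.9, 37.4, 46.1, 39.6 and 39 CPM in the late L2 libraries. *Hr4* in early L3 stood at 3.89, 0.531, 1.45, 0.223 and 0.442 CPM. For *Hr4* the log2 fold change was -4.75 on the CPM scale (limma adjusted p = 1.31e-05) and -4.65 on the median-ratio scale (limma adjusted p = 1.5e-05), and early L3 replicate 1 again kept the most. *ImpL1* and *ImpE1*, identified as ecdysone-inducible transcripts of imaginal discs, both fell. *ImpL1* was at 23.5, 46.5, 22.8, 8.7 and 34.5 CPM in the late L2 libraries. *ImpL1* in early L3 stood at 3.1, 0, 0.291, 0 and 0 CPM. For *ImpL1* the log2 fold change was -4.90 on the CPM scale (limma adjusted p = 4.45e-05) and -4.82 on the median-ratio scale (limma adjusted p = 5.47e-05). *ImpE1* fell from 6.36 ± 3.96 to 0.242 ± 0.206 CPM (log2 fold change -3.05 on the CPM scale and -2.97 on the median-ratio scale). *ftz-f1*, a nuclear receptor of the mid-prepupal and molting response, was at 19.7, 17.4, 31.8, 49.9 and 27.2 CPM in the late L2 libraries. *ftz-f1* in early L3 stood at 18.2, 14.9, 18.9, 17 and 18.2 CPM. It was called on the CPM scale only, and that call was lost when any of 8 single libraries was left out. Late L2 replicate 4 held the highest level, and without it the log2 fold change was -0.42. *Hr3* fell from 3.7 ± 3.44 to 0.737 ± 0.497 CPM (log2 fold change -1.49 on the CPM scale and -1.40 on the median-ratio scale) with wide spread among the late L2 libraries and overlapping stages, and on the median-ratio scale it lost its call when any of 6 single libraries was left out. The ABC transporter gene *E23* fell from 20.4 ± 7.9 to 9.05 ± 0.606 CPM (log2 fold change -1.03 on the CPM scale and -0.90 on the median-ratio scale), also with overlap.

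A pair of early genes rose. *br* (broad), a zinc-finger factor tied to the larval-to-pupal transition, was at 4.88, 4.57, 6.77, 10.4 and 8.85 CPM in the late L2 libraries. *br* in early L3 stood at 33.7, 51.5, 37.7, 58.7 and 40.0 CPM. For *br* the log2 fold change was 2.60 on the CPM scale (limma adjusted p = 1.31e-05) and 2.72 on the median-ratio scale (limma adjusted p = 1.49e-05), and the highest late L2 library was replicate 4. *Eip74EF*, an ETS-domain early gene, was at 1.09, 0.794, 1.02, 3.13 and 1.17 CPM in the late L2 libraries. *Eip74EF* in early L3 stood at 5.28, 11.6, 6.32, 12.8 and 4.9 CPM. For *Eip74EF* the log2 fold change was 2.16 on the CPM scale (limma adjusted p = 0.000218) and 2.27 on the median-ratio scale (limma adjusted p = 0.000205). *Eip75B*, at 26.4 ± 4.68 and 29.1 ± 4.16 CPM (log2 fold change 0.15 on the CPM scale and 0.27 on the median-ratio scale), and *crol*, at 93.4 ± 3.77 and 95.1 ± 1.43 CPM (log2 fold change 0.028 on the CPM scale and 0.16 on the median-ratio scale), were not called.

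**Figure D2:**
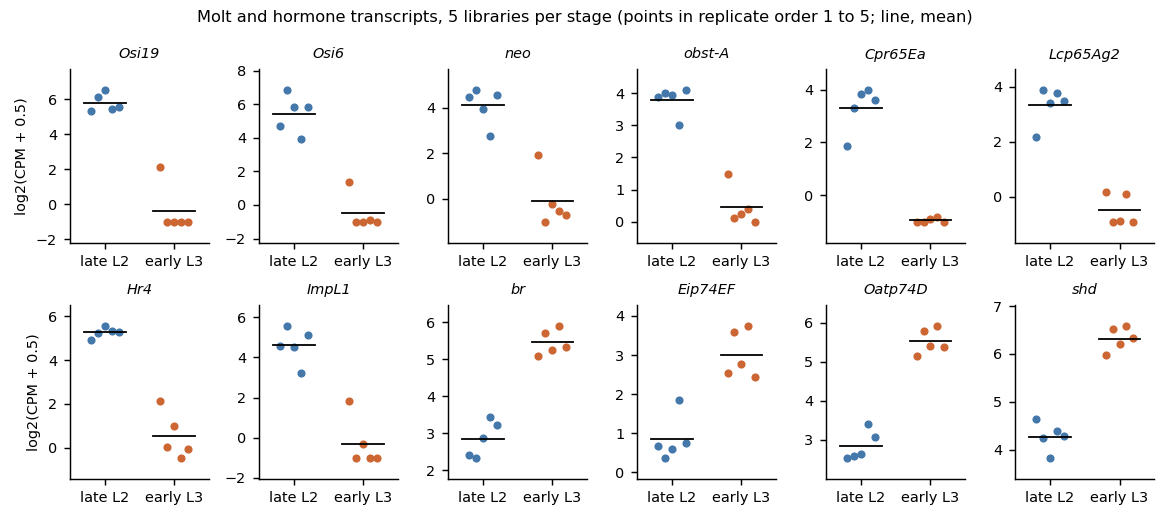
Levels of 12 molt and hormone transcripts as log2(CPM + 0.5) (y axis) in the 5 late L2 and 5 early L3 libraries (points in replicate order, line at the mean). *Osi19*, *Osi6*, *neo*, *obst-A* and *Hr4* kept their highest early L3 level in replicate 1, whereas *br*, *Eip74EF*, *Oatp74D* and *shd* were higher in every early L3 library than in any late L2 library.

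Juvenile hormone, the sesquiterpenoid that keeps molts larval, has its own responsive and carrier genes. Among the juvenile hormone genes, 19 of 21 passed the minimum, 1 of them only through late L2. Of these 19, 4 rose and 7 fell on the CPM scale. In median-ratio units 5 rose and 7 fell, with median log2 fold changes of 0.063 (CPM) and 0.17 (median ratio). The shares of all transcripts were 6.45% and 9.5% for rises and 18.8% and 13.6% for falls. *Jhbp14*, a putative juvenile hormone-binding protein, was at 1.33, 1.81, 0.544, 2.79 and 1.56 CPM in the late L2 libraries. *Jhbp14* in early L3 stood at 33.9, 40.8, 36.5, 45.1 and 32.7 CPM. For *Jhbp14* the log2 fold change was 4.27 on the CPM scale (limma adjusted p = 6.86e-06) and 4.38 on the median-ratio scale (limma adjusted p = 7.01e-06), and it was among the 12 largest rises. *Jhbp7* rose from 4.97 ± 1.91 to 31 ± 3.86 CPM (log2 fold change 2.59 on the CPM scale and 2.72 on the median-ratio scale). The juvenile hormone-inducible *JhI-26* rose from 183 ± 20.3 to 360.5 ± 35.7 CPM (log2 fold change 0.98 on the CPM scale and 1.11 on the median-ratio scale). *Jhbp2* fell from 7.01 ± 2.57 to 0.166 ± 0.35 CPM (log2 fold change -3.54 on the CPM scale and -3.47 on the median-ratio scale). So did *Fkbp39*, an immunophilin linked to autophagy control, which fell from 164 ± 32.3 to 50.2 ± 8.03 CPM (log2 fold change -1.69 on the CPM scale and -1.56 on the median-ratio scale).

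Temporal identity regulators, which elsewhere in the larva mark early and late developmental windows, were called in 5 of 10 cases. Of all transcripts, 25.3% were called on the CPM scale and 23.1% on the median-ratio scale. Of the 10 tested, 1 of which passed the minimum only through late L2, 3 rose and 2 fell on the CPM scale. By median ratio, 3 rose and 2 fell, with median log2 fold changes of 0.0014 (CPM) and 0.13 (median ratio). For the called ones the early L2 means are given as a description. *Syp*, an RNA-binding protein of late windows, was at 27.8, 31.8, 34.3, 48.1 and 40.0 CPM in the late L2 libraries. *Syp* in early L3 stood at 73.7, 105, 84, 104 and 99.7 CPM. Its early L2 mean was 1.84 CPM. For *Syp* the log2 fold change was 1.36 on the CPM scale (limma adjusted p = 2.64e-05) and 1.49 on the median-ratio scale (limma adjusted p = 3.01e-05). *mamo* (maternal gene required for meiosis), a zinc-finger factor, rose from 14.8 ± 5.86 to 33.2 ± 3.91 CPM (log2 fold change 1.21 on the CPM scale and 1.33 on the median-ratio scale), and its early L2 mean was 0.116 CPM. The early-window factors *chinmo* and *Imp* fell. *chinmo* was at 66.9, 66.6, 65, 66.7 and 61.1 CPM in the late L2 libraries. *chinmo* in early L3 stood at 43.3, 33.9, 40.4, 35.6 and 34.2 CPM. For *chinmo* the log2 fold change was -0.80 on the CPM scale (limma adjusted p = 1.31e-05) and -0.67 on the median-ratio scale (limma adjusted p = 1.97e-05). *Imp* fell from 75.4 ± 7.44 to 46.6 ± 5.45 CPM (log2 fold change -0.69 on the CPM scale and -0.56 on the median-ratio scale). In early L2, *chinmo* averaged 94.1 CPM and *Imp* 99.2 CPM, above their late L2 means, whereas *br*, given above, averaged 1.05 CPM, below its own. In each of these 4 regulators the stages did not overlap. Among metabolic regulators, *srl* (spargel), the fly PGC-1 homolog, fell from 84 ± 14.5 to 27.3 ± 6.58 CPM (log2 fold change -1.62 on the CPM scale and -1.49 on the median-ratio scale). *sug* (sugarbabe), a sugar-responsive zinc-finger factor, fell from 38.9 ± 9.15 to 15.1 ± 2.1 CPM (log2 fold change -1.31 on the CPM scale and -1.18 on the median-ratio scale). *SREBP* was at 307 ± 17.7 and 360.4 ± 14.5 CPM (log2 fold change 0.23 on the CPM scale and 0.36 on the median-ratio scale) and was not called.

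Genes of ribosome production fell broadly, beside 18.8% (CPM) and 13.6% (median ratio) of all transcripts. All 53 ribosome biogenesis factors passed the minimum, and 0 rose and 51 fell on the CPM scale. After median-ratio scaling 0 rose and 51 fell, with median log2 fold changes of -1.71 (CPM) and -1.58 (median ratio). Their summed level in early L3 was 31.9% of late L2 on the CPM scale and 34.9% on the median-ratio scale. *Nop60B*, the dyskerin homolog that modifies ribosomal RNA, was at 319, 412, 271, 269.6 and 285 CPM in the late L2 libraries. *Nop60B* in early L3 stood at 83.5, 55.3, 93.9, 46.2 and 60.5 CPM. For *Nop60B* the log2 fold change was -2.22 on the CPM scale (limma adjusted p = 1.31e-05) and -2.09 on the median-ratio scale (limma adjusted p = 1.46e-05). Every early L3 library lay below every late L2 library, with early L3 replicates 1 and 3 the highest of their stage. *nop5*, a core protein of the same small nucleolar particles, fell from 219 ± 41 to 46.2 ± 13.7 CPM (log2 fold change -2.27 on the CPM scale and -2.14 on the median-ratio scale). *Fib* (fibrillarin), the methyltransferase of these particles, was at 163, 224, 148, 137 and 146 CPM in the late L2 libraries. *Fib* in early L3 stood at 42.8, 27, 44.9, 22.6 and 29.6 CPM. It was named after its values were seen. Of the 19 subunits and factors of RNA polymerases I and III, 0 rose and 16 fell on the CPM scale. With median-ratio factors 0 rose and 14 fell, with median log2 fold changes of -0.92 (CPM) and -0.80 (median ratio). The large subunit of polymerase I, *Polr1A*, fell from 98.2 ± 18.6 to 31.7 ± 7.62 CPM (log2 fold change -1.63 on the CPM scale and -1.50 on the median-ratio scale). *Polr1B* fell from 42.2 ± 7.02 to 10.9 ± 2.5 CPM (log2 fold change -1.92 on the CPM scale and -1.79 on the median-ratio scale).

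Ribosomal proteins had medians nearer to 0, and there the scale decided the count. Among the cytosolic ribosomal proteins, 86 of 90 passed the minimum, 1 of them only through late L2. Of these 86, 0 rose and 36 fell on the CPM scale. The median-ratio counts were 0 rises and 6 falls, with median log2 fold changes of -0.49 (CPM) and -0.36 (median ratio). Among all transcripts, 18.8% and 13.6% fell. Every early L3 library lay below every late L2 library for 86 of the 86 on the CPM scale and 85 on the median-ratio scale, against 28.7% and 21.4% of all transcripts. Their summed level went to 71.1% of late L2 on the CPM scale and 77.9% on the median-ratio scale. Many members lay close to the minimum fold change: with early L3 replicate 1 and late L2 replicate 4 left out, 63 fell on the CPM scale and 6 on the median-ratio scale. Single libraries moved the CPM-scale count too, to 21 without late L2 replicate 2 or early L3 replicate 2 and to 60 without late L2 replicate 4. *RpL3* was at 3014, 3186, 2862, 2569 and 2814 CPM in the late L2 libraries. *RpL3* in early L3 stood at 2125, 1826, 2189, 1907 and 2069 CPM. For *RpL3* the log2 fold change was -0.51 on the CPM scale (limma adjusted p = 0.000146) and -0.38 on the median-ratio scale (limma adjusted p = 0.000393), with the CPM-scale call lost when any of 4 single libraries was left out. *RpLP0-like*, which acts in ribosome assembly, fell from 65.6 ± 11.3 to 19.3 ± 4.87 CPM (log2 fold change -1.76 on the CPM scale and -1.63 on the median-ratio scale). All 73 mitochondrial ribosomal proteins were tested, and 0 rose and 68 fell on the CPM scale. Scaled by median ratio, 0 rose and 60 fell, with median log2 fold changes of -0.86 (CPM) and -0.74 (median ratio). *mRpS30* fell from 141 ± 17.3 to 84.2 ± 13.5 CPM (log2 fold change -0.75 on the CPM scale and -0.62 on the median-ratio scale). Of the 33 aminoacyl-tRNA synthetases, 0 rose and 20 fell on the CPM scale. Median-ratio scaling gave 0 rises and 11 falls, with median log2 fold changes of -0.51 (CPM) and -0.38 (median ratio). Of the 42 translation initiation and elongation factors, 0 rose and 14 fell on the CPM scale. In median-ratio units 0 rose and 5 fell, with median log2 fold changes of -0.45 (CPM) and -0.32 (median ratio).

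**Figure D3:**
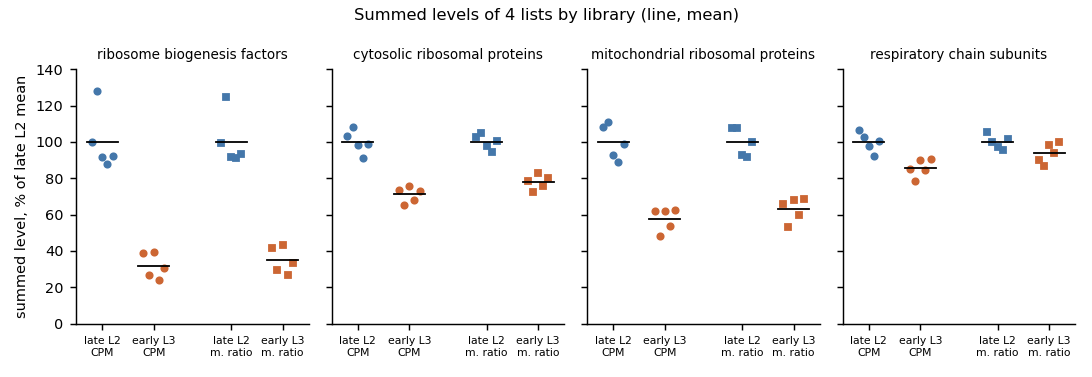
Summed levels of 4 lists in each library (y axis, % of the late L2 mean) on the CPM scale (circles) and the median-ratio scale (squares), with a line at the mean of 5 libraries. Ribosome biogenesis factors went to 31.9% and 34.9%, cytosolic ribosomal proteins to 71.1% and 77.9% and mitochondrial ribosomal proteins to 57.5% and 63%, while respiratory chain subunits stayed closest to late L2.

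Most growth regulators were not called, as was true of all transcripts (25.3% called on the CPM scale, 23.1% by median ratio). Many replication genes fell, beside 18.8% and 13.6% of all transcripts. *Myc*, the transcription factor that drives ribosome production, was at 145, 163, 140.2, 169.6 and 152 CPM in the late L2 libraries. *Myc* in early L3 stood at 75.4, 34, 57.9, 36.1 and 50.1 CPM. For *Myc* the log2 fold change was -1.65 on the CPM scale (limma adjusted p = 3.52e-05) and -1.52 on the median-ratio scale (limma adjusted p = 5.31e-05), with the highest early L3 level in replicate 1. *Mnt*, its antagonist for the shared partner Max, rose from 23.9 ± 1.74 to 43.5 ± 4.1 CPM (log2 fold change 0.85 on the CPM scale and 0.98 on the median-ratio scale). Of the 31 genes of the Myc, insulin and TOR list, 1 rose and 3 fell on the CPM scale. By median ratio, 1 rose and 3 fell, with median log2 fold changes of -0.11 (CPM) and 0.014 (median ratio). Among the replication licensing and endocycle genes, 44 of 45 passed the minimum, and of these 0 rose and 27 fell on the CPM scale. After median-ratio scaling 0 rose and 17 fell, with median log2 fold changes of -0.55 (CPM) and -0.43 (median ratio). The replicative helicase subunits *Mcm5* and *Mcm6* both fell. *Mcm5* went from 17.5 ± 0.95 to 9.47 ± 1.24 CPM (log2 fold change -0.86 on the CPM scale and -0.73 on the median-ratio scale) and *Mcm6* from 23 ± 4.69 to 11.1 ± 1.07 CPM (log2 fold change -1.01 on the CPM scale and -0.88 on the median-ratio scale). *E2f1*, at 90.1 ± 4.44 and 86.1 ± 4.44 CPM (log2 fold change -0.066 on the CPM scale and 0.064 on the median-ratio scale), was not called. *Hsp60A*, the mitochondrial chaperonin, fell from 1049.7 ± 137 to 520.3 ± 81.2 CPM (log2 fold change -1.02 on the CPM scale and -0.89 on the median-ratio scale).

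Several large housekeeping lists had few or no calls. Among the nuclear respiratory chain subunits, 69 of 77 passed the minimum, and of these 0 rose and 0 fell on the CPM scale. With median-ratio factors 0 rose and 0 fell, with median log2 fold changes of -0.21 (CPM) and -0.078 (median ratio). Of the 15 TCA cycle genes, 0 rose and 0 fell on the CPM scale. The median-ratio counts were 0 rises and 0 falls, with median log2 fold changes of -0.18 (CPM) and -0.05 (median ratio). Among the proteasome subunits, 34 of 36 passed the minimum, and of these 0 rose and 0 fell on the CPM scale. Scaled by median ratio, 0 rose and 0 fell, with median log2 fold changes of -0.084 (CPM) and 0.045 (median ratio). Of the 24 vacuolar proton pump subunits, 1 passed the minimum only through late L2 and 2 only through early L3. Of these 24, 0 rose and 0 fell on the CPM scale. Median-ratio scaling gave 1 rise and 0 falls, with median log2 fold changes of 0.017 (CPM) and 0.15 (median ratio). For comparison, 25.3% of all transcripts were called on the CPM scale and 23.1% on the median-ratio scale. Calls required the minimum fold change. Every early L3 library lay below every late L2 library for 31 of 69 respiratory chain subunits (CPM) and 3 (median ratio). For TCA cycle genes these counts were 7 and 3, and for proteasome subunits 7 and 1, beside 28.7% and 21.4% of all transcripts. In the other direction, in the same order, stood 0 and 0, 1 and 1, and 0 and 1. Proton pump subunits had 1 and 11 above and 0 and 0 below, beside 11.9% and 19.2% above.

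Digestive lipases rose in most cases. Of the 11 digestive lipases, 1 of which passed the minimum only through early L3, 7 rose and 1 fell on the CPM scale. In median-ratio units 8 rose and 0 fell, with median log2 fold changes of 0.95 (CPM) and 1.08 (median ratio). Among all transcripts, 6.45% and 9.5% rose. *mag* (magro), a lysosomal and secreted lipase that also cleaves sterol esters, was at 159, 190.0, 263, 514 and 272 CPM in the late L2 libraries. *mag* in early L3 stood at 1231, 2260.0, 1544, 2455 and 2196 CPM. For *mag* the log2 fold change was 2.87 on the CPM scale (limma adjusted p = 2.24e-05) and 3.00 on the median-ratio scale (limma adjusted p = 2.65e-05), and late L2 replicate 4 was the highest of its stage and early L3 replicate 1 the lowest of its own. *CG6271* was at 55.7, 41, 149, 603 and 186 CPM in the late L2 libraries. *CG6271* in early L3 stood at 1961, 2159.7, 1154, 1686 and 1379.5 CPM. For *CG6271* the log2 fold change was 3.63 on the CPM scale (limma adjusted p = 0.000399) and 3.76 on the median-ratio scale (limma adjusted p = 0.000382). *CG6277* rose from 115 ± 82.1 to 647 ± 163 CPM (log2 fold change 2.69 on the CPM scale and 2.82 on the median-ratio scale). With *CG17191* and *CG6283* these genes formed a run of 4 rises, consecutive among the tested entries, on chromosome 3R from 27018608 to 27026109, named after its values were seen. Reads of such similar neighbours may be shared in counting, so that single members are uncertain.

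Among the digestive carbohydrases, 14 of 15 passed the minimum, and of these 7 rose and 1 fell on the CPM scale. By median ratio, 7 rose and 1 fell, with median log2 fold changes of 0.72 (CPM) and 0.85 (median ratio). *Mal-A4*, a maltase, was at 477, 512, 617, 837 and 636 CPM in the late L2 libraries. *Mal-A4* in early L3 stood at 1265, 1678, 1762, 1982 and 1635 CPM. For *Mal-A4* the log2 fold change was 1.45 on the CPM scale (limma adjusted p = 2.61e-05) and 1.58 on the median-ratio scale (limma adjusted p = 3.01e-05). *Amyrel*, an amylase-related glycosidase, rose from 120.2 ± 32.5 to 357 ± 63 CPM (log2 fold change 1.59 on the CPM scale and 1.72 on the median-ratio scale). *Amy-p*, an amylase, rose from 615 ± 117 to 1292 ± 243 CPM (log2 fold change 1.07 on the CPM scale and 1.20 on the median-ratio scale). *LysS*, a digestive lysozyme, rose from 885 ± 143 to 2042 ± 467 CPM (log2 fold change 1.19 on the CPM scale and 1.32 on the median-ratio scale). For the proteases, scale decided. Of all transcripts, 6.45% rose and 18.8% fell on the CPM scale, and 9.5% rose and 13.6% fell on the median-ratio scale. Of the 37 digestive proteases, 4 rose and 5 fell on the CPM scale. After median-ratio scaling 10 rose and 2 fell, with median log2 fold changes of 0.097 (CPM) and 0.23 (median ratio), with 2 rises on the CPM scale without late L2 replicate 2 and 7 without early L3 replicate 3. Of 16 Jonah proteases, 4 rose and 1 fell on the CPM scale. With median-ratio factors 8 rose and 0 fell, with median log2 fold changes of 0.32 (CPM) and 0.45 (median ratio). *Jon65Aiv* rose from 6003 ± 564 to 10149 ± 1772 CPM (log2 fold change 0.74 on the CPM scale and 0.87 on the median-ratio scale). *Jon25Biii*, which went from 9528 ± 1146 to 12327 ± 828 CPM, and *deltaTry*, which went from 3338 ± 166 to 4733 ± 918 CPM, were called on the median-ratio scale only. *alphaTry* fell from 173 ± 54.9 to 85.1 ± 20.4 CPM (log2 fold change -0.99 on the CPM scale and -0.86 on the median-ratio scale).

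Many lysosomal and some lipid-handling genes rose. Across all transcripts, rises were 6.45% (CPM) and 9.5% (median ratio) and falls 18.8% and 13.6%. On the list of lysosomal hydrolases and sterol transporters, 23 of 24 passed the minimum, 1 of them only through late L2. Of these 23, 12 rose and 1 fell on the CPM scale. The median-ratio counts were 15 rises and 1 fall, with median log2 fold changes of 0.61 (CPM) and 0.74 (median ratio). The proteases and glycosidases with *Sap-r* made up 10 of them, of which 5 rose on the CPM scale and 7 on the median-ratio scale. Of the 4 acid lipases, *mag* among them, 2 rose and 1 fell on either scale, and of the 9 Npc sterol transport genes tested, 5 rose on the CPM scale and 6 on the median-ratio scale. *Npc1b*, the sterol transporter of the midgut brush border, rose from 242 ± 13.7 to 385 ± 29.8 CPM (log2 fold change 0.66 on the CPM scale and 0.79 on the median-ratio scale). The acid lipase-related *Lip3* rose from 30.8 ± 13 to 105 ± 23 CPM (log2 fold change 1.81 on the CPM scale and 1.94 on the median-ratio scale). *Sap-r*, the saposin precursor of lysosomes, rose from 416 ± 47.5 to 801 ± 174 CPM (log2 fold change 0.93 on the CPM scale and 1.06 on the median-ratio scale). Among the CD36-family scavenger receptors, 12 of 13 passed the minimum, 1 of them only through late L2. Of these 12, 6 rose and 2 fell on the CPM scale. Scaled by median ratio, 6 rose and 2 fell, with median log2 fold changes of 0.48 (CPM) and 0.60 (median ratio). *ninaD*, which takes up carotenoids and vitamin E, was at 43.6, 47.8, 59.4, 229 and 62 CPM in the late L2 libraries. *ninaD* in early L3 stood at 625, 927, 920.0, 1242 and 1016 CPM. For *ninaD* the log2 fold change was 3.70 on the CPM scale (limma adjusted p = 2.57e-05) and 3.83 on the median-ratio scale (limma adjusted p = 2.92e-05), and it had stood at 1.92 CPM on average in early L2. *Snmp1*, a relative best known as a pheromone co-receptor, was at 0.0683, 0.0378, 0.068, 0.688 and 0.0354 CPM in the late L2 libraries. *Snmp1* in early L3 stood at 8.71, 11.4, 7.89, 11.8 and 7.93 CPM. For *Snmp1* the log2 fold change was 3.94 on the CPM scale (limma adjusted p = 6.86e-06) and 4.01 on the median-ratio scale (limma adjusted p = 7.01e-06). *emp* (epithelial membrane protein) rose from 18.6 ± 3.03 to 57.8 ± 5.72 CPM (log2 fold change 1.62 on the CPM scale and 1.75 on the median-ratio scale).

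The lipid lists that follow stand beside 6.45% rises and 18.8% falls of all transcripts (CPM), and 9.5% and 13.6% (median ratio). Of the 9 acyl-CoA and fatty acid binding genes, 4 rose and 1 fell on the CPM scale. Median-ratio scaling gave 6 rises and 1 fall, with median log2 fold changes of 0.47 (CPM) and 0.60 (median ratio). *Acbp6*, an acyl-CoA-binding protein, was at 597, 689, 740.5, 1377 and 929 CPM in the late L2 libraries. *Acbp6* in early L3 stood at 3259, 3782, 2893, 3526 and 2908 CPM. For *Acbp6* the log2 fold change was 1.97 on the CPM scale (limma adjusted p = 1.92e-05) and 2.10 on the median-ratio scale (limma adjusted p = 2.15e-05). *fabp*, a cytosolic fatty acid-binding protein, rose from 1366 ± 201 to 2772 ± 330.3 CPM (log2 fold change 1.02 on the CPM scale and 1.15 on the median-ratio scale). Among the fatty acid and triglyceride synthesis genes, 22 of 23 passed the minimum, and of these 10 rose and 1 fell on the CPM scale. In median-ratio units 12 rose and 1 fell, with median log2 fold changes of 0.40 (CPM) and 0.53 (median ratio). *mino* (minotaur), a glycerol-3-phosphate acyltransferase that opens glycerolipid synthesis, was at 93.4, 153, 107, 131 and 117 CPM in the late L2 libraries. *mino* in early L3 stood at 241, 385, 419, 486 and 389 CPM. For *mino* the log2 fold change was 1.66 on the CPM scale (limma adjusted p = 2.8e-05) and 1.79 on the median-ratio scale (limma adjusted p = 2.74e-05). *Agpat3* rose from 277 ± 16.1 to 479.6 ± 39.3 CPM (log2 fold change 0.79 on the CPM scale and 0.92 on the median-ratio scale) and *Dgat2* rose from 45.1 ± 1.96 to 77.9 ± 7.82 CPM (log2 fold change 0.78 on the CPM scale and 0.91 on the median-ratio scale). The fatty acid synthase *FASN1* rose from 1411 ± 275 to 2353 ± 250.2 CPM (log2 fold change 0.75 on the CPM scale and 0.88 on the median-ratio scale). *Lsd-1*, a perilipin of lipid droplets, rose from 3.13 ± 0.622 to 18.7 ± 9.04 CPM (log2 fold change 2.26 on the CPM scale and 2.38 on the median-ratio scale). *bmm* (brummer), the triglyceride lipase of droplets, rose from 33.9 ± 5.7 to 62.6 ± 9.77 CPM (log2 fold change 0.88 on the CPM scale and 1.01 on the median-ratio scale). Of the 23 beta-oxidation genes, 5 rose and 0 fell on the CPM scale. By median ratio, 6 rose and 0 fell, with median log2 fold changes of 0.14 (CPM) and 0.27 (median ratio), with *CG3902*, an acyl-CoA dehydrogenase, rising from 566 ± 55.2 to 1228 ± 141 CPM (log2 fold change 1.11 on the CPM scale and 1.24 on the median-ratio scale). Only 3 of them rose on the CPM scale without early L3 replicate 3 or without replicate 4.

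All 13 lipoproteins, lipoprotein receptors and carriers passed the minimum, 1 of them only through late L2. Of these 13, 3 rose and 1 fell on the CPM scale, where 6.45% of all transcripts rose and 18.8% fell. After median-ratio scaling 3 rose and 1 fell, with median log2 fold changes of -0.089 (CPM) and 0.022 (median ratio). On the median-ratio scale 9.5% of all transcripts rose and 13.6% fell. The lipoprotein receptors *LpR1* and *LpR2* rose without overlap. *LpR1* went from 38.3 ± 5.94 to 54.1 ± 3.91 CPM (log2 fold change 0.50 on the CPM scale and 0.63 on the median-ratio scale) and *LpR2* from 33.4 ± 3.05 to 52 ± 3.68 CPM (log2 fold change 0.63 on the CPM scale and 0.76 on the median-ratio scale), and the CPM-scale call of *LpR1* was lost when any of 5 single libraries was left out. *apolpp*, the precursor of the main lipoprotein of the hemolymph, was at 11.9 ± 9.41 and 18.1 ± 21.4 CPM (log2 fold change -0.089 on the CPM scale and 0.022 on the median-ratio scale), and *Mtp*, the transfer protein that loads it with lipid, at 16 ± 2.19 and 13.3 ± 1.5 CPM (log2 fold change -0.26 on the CPM scale and -0.13 on the median-ratio scale). The *apolpp* value, which is also the list median, rested on single libraries. On the CPM scale it was -0.77 without late L2 replicate 3, -0.78 without early L3 replicate 2 and 0.65 without early L3 replicate 5.

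**Figure D4:**
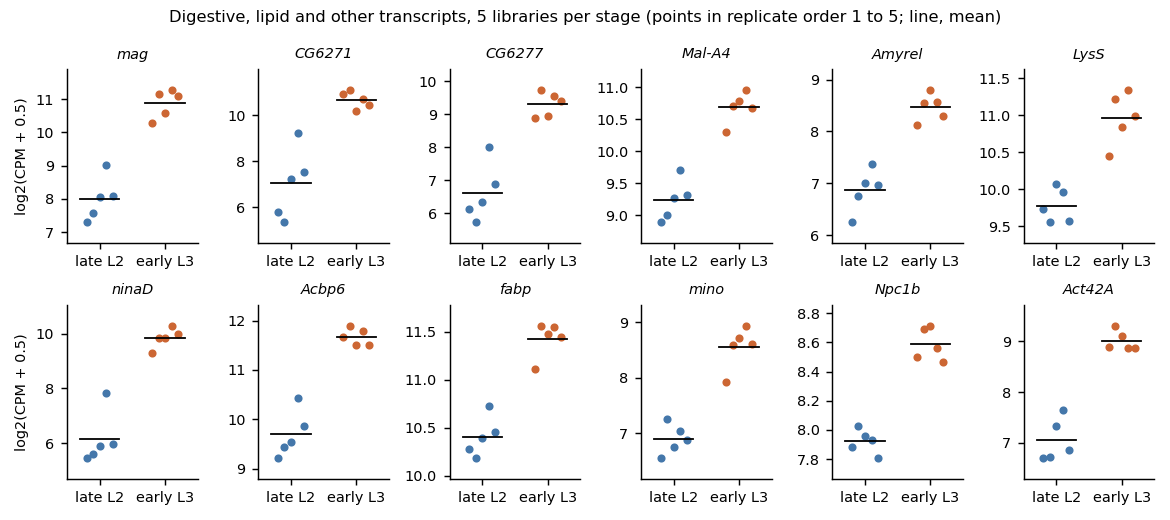
Levels of 12 digestive, lipid and other transcripts as log2(CPM + 0.5) (y axis) in the 5 late L2 and 5 early L3 libraries (points in replicate order, line at the mean). For all 12 every early L3 library lay above every late L2 library, and for *mag*, *CG6271*, *ninaD* and *Acbp6* late L2 replicate 4 was the highest of its stage.

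The remaining groups were mixed. Their counts stand beside 6.45% rises and 18.8% falls of all transcripts (CPM), and 9.5% and 13.6% (median ratio). Among the cytochrome P450s, 63 of 77 passed the minimum, 2 of them only through late L2 and 4 only through early L3. Of these 63, 19 rose and 4 fell on the CPM scale. With median-ratio factors 27 rose and 4 fell, with median log2 fold changes of 0.35 (CPM) and 0.48 (median ratio). *Cyp6t1* rose from 4.32 ± 1.96 to 30.9 ± 9.06 CPM (log2 fold change 2.74 on the CPM scale and 2.86 on the median-ratio scale) and *Cyp9b2*, the most abundant, rose from 1174 ± 297 to 1887 ± 445 CPM (log2 fold change 0.70 on the CPM scale and 0.83 on the median-ratio scale). Among the glutathione S-transferases, 31 of 33 passed the minimum, and of these 7 rose and 1 fell on the CPM scale. The median-ratio counts were 10 rises and 0 falls, with median log2 fold changes of 0.11 (CPM) and 0.24 (median ratio). Among the UDP-glycosyltransferases, 29 of 31 passed the minimum, 1 of them only through late L2 and 1 only through early L3. Of these 29, 3 rose and 9 fell on the CPM scale. Scaled by median ratio, 6 rose and 7 fell, with median log2 fold changes of -0.28 (CPM) and -0.18 (median ratio). *Prx2*, a peroxiredoxin, fell from 729 ± 186 to 367 ± 61.2 CPM (log2 fold change -0.97 on the CPM scale and -0.84 on the median-ratio scale). The ferritin chains *Fer1HCH* and *Fer2LCH* both rose. *Fer1HCH* went from 1363 ± 65.4 to 2128 ± 377 CPM (log2 fold change 0.63 on the CPM scale and 0.76 on the median-ratio scale) and *Fer2LCH* from 1186 ± 28.7 to 1862 ± 354 CPM (log2 fold change 0.63 on the CPM scale and 0.76 on the median-ratio scale). *Tsf1* (transferrin) rose from 1.13 ± 0.448 to 17.6 ± 8.47 CPM (log2 fold change 3.39 on the CPM scale and 3.49 on the median-ratio scale). Of the chaperones of the endoplasmic reticulum, *Hsc70-3* rose from 2113 ± 352 to 3263 ± 523 CPM (log2 fold change 0.63 on the CPM scale and 0.76 on the median-ratio scale) and *Gp93* rose from 1258 ± 207 to 2240.5 ± 331 CPM (log2 fold change 0.84 on the CPM scale and 0.97 on the median-ratio scale). *Act42A*, a cytoplasmic actin, was at 104, 106, 160.4, 199 and 115 CPM in the late L2 libraries. *Act42A* in early L3 stood at 472, 629, 549.9, 466 and 466 CPM. For *Act42A* the log2 fold change was 1.95 on the CPM scale (limma adjusted p = 1.43e-05) and 2.08 on the median-ratio scale (limma adjusted p = 1.64e-05). *Act5C*, at 7629 ± 253 and 8209.7 ± 257 CPM (log2 fold change 0.11 on the CPM scale and 0.24 on the median-ratio scale), was not called. Of the amino acid transporters, *sbm* (sobremesa) rose from 25.9 ± 4.95 to 109 ± 41.1 CPM (log2 fold change 2.00 on the CPM scale and 2.13 on the median-ratio scale) and *mnd* (minidiscs) fell from 15.6 ± 3.75 to 5.48 ± 1.38 CPM (log2 fold change -1.42 on the CPM scale and -1.30 on the median-ratio scale).

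Of the 12 largest rises, those of *ninaD*, *CG6271*, *Jhbp14* and *Tsf1* are given above. The largest was that of *CG5162*, which was at 0.102, 0.227, 0.068, 1.2 and 1.59 CPM in the late L2 libraries. *CG5162* in early L3 stood at 30.9, 36.8, 31.3, 36.4 and 29.1 CPM. For *CG5162* the log2 fold change was 5.09 on the CPM scale (limma adjusted p = 9.57e-06) and 5.17 on the median-ratio scale (limma adjusted p = 9.16e-06), and no late L2 library came near the early L3 range. *CG15353* was at 0, 0, 0, 1.75 and 0.39 CPM in the late L2 libraries. *CG15353* in early L3 stood at 17.2, 29.2, 18.3, 22.7 and 19.9 CPM. For *CG15353* the log2 fold change was 4.83 on the CPM scale (limma adjusted p = 1.31e-05) and 4.90 on the median-ratio scale (limma adjusted p = 1.32e-05), with reads in late L2 replicates 4 and 5 only among the libraries of that stage. *Nplp4* (neuropeptide-like precursor 4), which lies close to it on chromosome 2L, rose from 1.75 ± 0.778 to 21.6 ± 4.01 CPM (log2 fold change 3.35 on the CPM scale and 3.47 on the median-ratio scale). *AANATL6*, a member of the arylalkylamine N-acetyltransferase family, was at 2.8, 4.01, 4.08, 19.1 and 3.51 CPM in the late L2 libraries. *AANATL6* in early L3 stood at 46.4, 117, 82.1, 162 and 99.8 CPM. For *AANATL6* the log2 fold change was 4.08 on the CPM scale (limma adjusted p = 3.74e-05) and 4.20 on the median-ratio scale (limma adjusted p = 4.18e-05). Late L2 replicate 4 was again the highest of its stage and early L3 replicate 1 the lowest of its own. *CG14566* rose from 31.8 ± 12 to 267 ± 19.1 CPM (log2 fold change 3.15 on the CPM scale and 3.28 on the median-ratio scale) and was the most abundant of the 12 after *ninaD* and *CG6271*. *CG17190* rose from 3.09 ± 1.91 to 25.2 ± 1.97 CPM (log2 fold change 2.99 on the CPM scale and 3.10 on the median-ratio scale), *CG33120* rose from 0.656 ± 0.501 to 10.9 ± 4.86 CPM (log2 fold change 3.30 on the CPM scale and 3.39 on the median-ratio scale), and *CG7497* rose from 2.05 ± 0.793 to 18.1 ± 2.57 CPM (log2 fold change 2.93 on the CPM scale and 3.04 on the median-ratio scale).

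Markers of other tissues were read beside these results. The shares of all transcripts were 6.45% (CPM) and 9.5% (median ratio) for rises and 18.8% and 13.6% for falls. Of 22 muscle markers, 1 rose and 0 fell on the CPM scale. Median-ratio scaling gave 1 rise and 0 falls, with median log2 fold changes of -0.13 (CPM) and -0.0054 (median ratio), with *Mhc* (myosin heavy chain) at 1346 ± 128 and 1215 ± 108 CPM (log2 fold change -0.15 on the CPM scale and -0.017 on the median-ratio scale). Of 13 enteroendocrine markers, 0 rose and 2 fell on the CPM scale. In median-ratio units 0 rose and 0 fell, with median log2 fold changes of -0.32 (CPM) and -0.20 (median ratio). Of 9 Malpighian tubule markers, 1 rose and 3 fell on the CPM scale. By median ratio, 2 rose and 2 fell, with median log2 fold changes of -0.10 (CPM) and 0.025 (median ratio). Their summed level ran from 1103 to 1431 CPM in late L2 and from 678 to 1017 CPM in early L3, most of it from *Picot*, a phosphate cotransporter that fell from 971 ± 122 to 589.7 ± 108 CPM (log2 fold change -0.73 on the CPM scale and -0.60 on the median-ratio scale). Of 10 hemocyte markers, 3 of which passed the minimum only through early L3, 2 rose and 0 fell on the CPM scale. After median-ratio scaling 2 rose and 0 fell, with median log2 fold changes of 0.075 (CPM) and 0.18 (median ratio). Their sum ran from 199 to 262 CPM in late L2 and from 308 to 399 CPM in early L3, most of it from *crq* (croquemort), which is a CD36-family receptor as well and rose from 191 ± 26.4 to 311 ± 21.3 CPM (log2 fold change 0.71 on the CPM scale and 0.84 on the median-ratio scale). The defining *Hml* (hemolectin) averaged under 1 CPM in both stages. It was 1 of the 2 called as risen, with a CPM-scale log2 fold change of 0.63. That call was lost when any of 6 single libraries was left out, and its median-ratio call when any of 5 was. The larval serum protein *Lsp1gamma*, a storage protein of the fat body, was at 2.63, 2.72, 2.76, 103 and 10.1 CPM in the late L2 libraries. *Lsp1gamma* in early L3 stood at 108, 119.7, 54, 97.5 and 45 CPM. Late L2 replicate 4 was within the early L3 range, and without it the CPM-scale log2 fold change went from 3.29 to 4.2. *Lsp1beta*, which was not called, was at 0.682, 4.38, 0, 98.6 and 10.8 CPM in the late L2 libraries. *Lsp1beta* in early L3 stood at 79.7, 113, 4.4, 65.9 and 0 CPM, with the same late L2 library apart from its stage. Among the fat body markers, 7 of 9 passed the minimum, and of these 3 rose and 0 fell on the CPM scale. With median-ratio factors 3 rose and 0 fell, with median log2 fold changes of 1.77 (CPM) and 1.86 (median ratio), and their part in the lipid results was not tested. The CPM-scale median is the value of *Lsp1beta*, which was 0.93 without late L2 replicate 3 and 3.04 without early L3 replicate 5. *FASN1* and *Tsf1* are on that list and among the genes described above.

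Transposable element copies and noncoding RNAs changed too. Of 269 element copies, 25 rose and 9 fell on the CPM scale. The median-ratio counts were 27 rises and 7 falls, with median log2 fold changes of 0.019 (CPM) and 0.10 (median ratio). The copies that rose were 9.29% and 10.0% of those tested, near the 6.45% and 9.5% of all transcripts, and those that fell were 3.35% and 2.6%, against 18.8% and 13.6%. Copies of one family share sequence, so that single copies are uncertain. Of the 200 long noncoding RNAs, 14 rose and 21 fell on the CPM scale. Scaled by median ratio, 22 rose and 18 fell, with median log2 fold changes of 0.037 (CPM) and 0.11 (median ratio). Rises were 7% and 11% of them, and falls 10.5% and 9%.

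**Figure D5:**
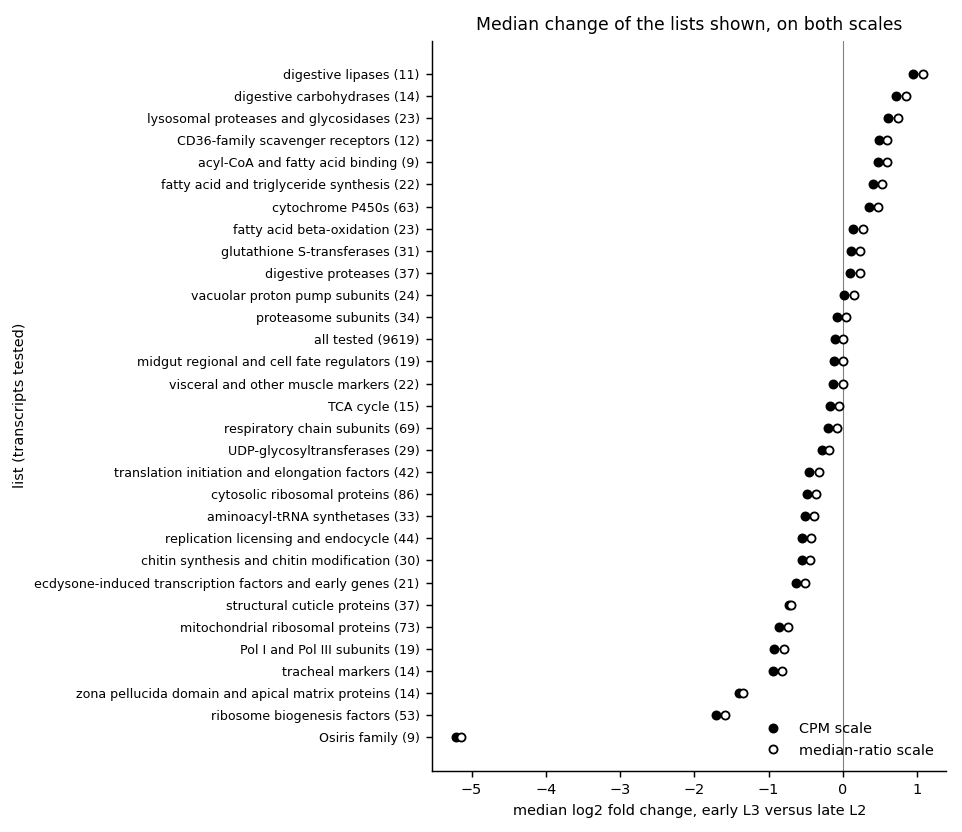
Median log2 fold change of 30 lists and of all tested transcripts (x axis) between late L2 and early L3 on the CPM scale (filled) and the median-ratio scale (open), with the number of transcripts tested in parentheses (y axis). The Osiris family lay lowest at -5.22 and -5.14, ribosome biogenesis factors at -1.71 and -1.58, and digestive lipases highest of those shown at 0.95 and 1.08, around -0.11 and 0.006 for all 9619. Fat body markers, at 1.77 and 1.86, are not shown, and their CPM-scale median is the value of *Lsp1beta*, which was not called.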

How the data were processed

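Polyadenylated RNA of w1118 larval midguts was sequenced as read pairs from stranded libraries, 5 per stage. Per the submitters' processing notes, the authors used Trim Galore 0.6.7, STAR 2.7.10a, Salmon 1.5.2, Picard, FastQC, MultiQC 1.11 and DESeq2 with build BDGP6. The authors deposited expression as CPM, reads of a transcript scaled to a common library total, and 100% of the values above 0 came out as whole reads, within a tolerance of 0.001, once divided by what 1 read was worth (0.0295 to 0.0378 CPM in the 10 libraries). A further table of the authors' own fold changes and p-values was not used. ERCC spike-ins were added ahead of library preparation. No spike-in values were found among the entries used here, so both scales are relative.

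CPM was tested as log2(CPM + 0.5) with limma 3.58.1 in R 4.3.3 (intensity trend, Benjamini-Hochberg adjustment, entries of at least 0.5 CPM in at least 1 of 10 libraries) and again after division by median-ratio size factors. Shares of reads were compared by exact permutation over 252 arrangements, of which the smallest p is 0.00794. edgeR 4.0.16 and DESeq2 1.42.0 on the recovered reads, TMM, quantile normalization, other pseudocounts and filters, a replicate block and leaving out libraries were alternatives, and the scripts were tested on simulated data. Depth was 26457135 to 33902298 reads per library. Errors are SD over 5 libraries. Libraries were checked for position between stages, and fits leaving out early L3 replicate 1 and late L2 replicate 4 were added after seeing the data.

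Named genes were the 12 largest rises and 12 largest falls called on both scales, with a mean of at least 5 CPM and no overlap, up to 5 members of each list with the smallest p and 3 with the highest mean, the hormone, Osiris and temporal lists, the 8 most abundant transcripts called on a single scale and the 10 largest share changes each way. Members and lists were chosen with earlier results of these data known. Gene names and positions come from Ensembl 115 (BDGP6.54), which matched 12094 of 12133 entries.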

Additional observations from a re-analysis of the deposited data

Results flagged for a closer look

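A library lay far from the other 4 of its stage, by Dixon's test at its 95% limit of 0.71 of the range, in 44 of the 328 sets of 5 values examined (13.4%). The limit gives about 1 in 20 for independent, normally distributed values. These sets are not independent, and in several the other 4 libraries held no reads, so the share was not compared with chance.

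Early L3 replicate 1 lay apart in 23 sets, given here against the range of the other 4 libraries. It was high for *CG13048* at 3.43 against 0 to 0.0363 CPM, *CG14147* at 11.8 against 0 to 0.0319 CPM, *CG46026* at 0.066 against 0 CPM and *Cad99C* at 2.51 against 1.03 to 1.34 CPM. High values were *Cpr64Ab* at 7.23 against 0 to 0.16 CPM, *Cyp301a1* at 1.65 against 0.764 to 0.981 CPM, *Gld* at 1.02 against 0 to 0.218 CPM and *ImpL1* at 3.1 against 0 to 0.291 CPM. Further high values were *Jhbp2* at 0.792 against 0 to 0.0363 CPM, *Lip3* at 145 against 85 to 99 CPM, *Osi18* at 4.49 against 0 CPM and *Osi19* at 3.83 against 0 CPM. Others were *Osi2* at 3.27 against 0 to 0.118 CPM, *Osi6* at 2.11 against 0 to 0.0319 CPM, *Osi7* at 1.78 against 0 CPM and *Osi9* at 3.83 against 0 CPM. More were *dyl* at 2.08 against 0 to 0.16 CPM, *ect* at 12.9 against 0.531 to 1.4 CPM, *neo* at 3.33 against 0 to 0.363 CPM and *obst-A* at 2.28 against 0.501 to 0.829 CPM. The last were *uif* at 15.4 against 3.69 to 6.11 CPM. It was low for *Men* at 361 against 613 to 678 CPM and *fabp* at 2208 against 2791 to 3013 CPM.

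Late L2 replicate 4 lay apart in 12 sets. It was high for *AANATL6* at 19.1 against 2.8 to 4.08 CPM, *CG15353* at 1.75 against 0 to 0.39 CPM, *CG6271* at 603.5 against 41 to 186 CPM and *E2f1* at 98 against 87.5 to 89.4 CPM. High values were *Eip74EF* at 3.13 against 0.794 to 1.17 CPM, *Lsp1beta* at 98.6 against 0 to 10.8 CPM, *Lsp1gamma* at 103 against 2.63 to 10.1 CPM and *Snmp1* at 0.688 against 0.0354 to 0.0683 CPM. Further high values were *emp* at 23.8 against 16 to 18.2 CPM and *ninaD* at 229 against 43.6 to 62 CPM. It was low for *Cyp301a1* at 2.1 against 3.65 to 4.27 CPM and *obst-A* at 7.53 against 14.1 to 16.5 CPM.

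Late L2 replicate 2 lay apart in 6 sets, in each on the high side. These were *Imp* at 88.3 against 70.6 to 75.1 CPM, *Mcm6* at 31.2 against 19.4 to 22.4 CPM, *Polr1A* at 131 against 85.4 to 94.9 CPM and *RpLP0-like* at 85.5 against 58.5 to 62.3 CPM. The rest were *nop5* at 290.2 against 191 to 215 CPM and *srl* at 109 against 71.9 to 81.5 CPM. The others were single cases. Late L2 replicate 1 had *CG3902* at 662 against 524 to 558 CPM, late L2 replicate 3 had *mesh* at 769 against 680.5 to 695 CPM, and early L3 replicate 5 had *bowl* at 40.1 against 34.6 to 35.5 CPM.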

How the results depend on the processing

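None of the 163 named transcripts was called in the opposite direction on either scale under the alternatives run, and no called one changed sign. Calls changed in 126 of 3905 gene-and-setting pairs on the CPM scale (97 lost, 29 gained) and in 51 of 3253 on the median-ratio scale (45 lost, 6 gained). Counts by list moved by over 1.5 times in 287 of 3168 cases on the CPM scale and 177 of 2640 on the median-ratio scale.

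A pseudocount of 4 left 1590 changed transcripts on the CPM scale, 1170 of them falls, and 1482 on the median-ratio scale, 861 of them falls. Rises on the CPM scale numbered 1045 after quantile normalization, 986 with edgeR and 1010 with DESeq2, and quantile normalization left 1147 falls. The cause was not tested. Size factors from entries of at least 10 CPM gave 815 rises and 1406 falls on the median-ratio scale. The share of reads, early L3 minus late L2, differed by -0.754 percentage points for the 10 most abundant entries (exact permutation p = 0.167) and by 0.827 points for the 50 most abundant (exact permutation p = 0.143), neither past the threshold. Without each library in turn, the changed transcripts ranged from 2236 to 2620 on the CPM scale (rises 568 to 653, falls 1657 to 1969) and from 2040 to 2392 on the median-ratio scale (rises 828 to 989, falls 1212 to 1403), and the difference in the share of the 100 most abundant entries from 1.46 to 1.98 points. With early L3 replicate 1 and late L2 replicate 4 both left out, an alternative chosen after seeing the data, 2753 changed on the CPM scale and 2485 on the median-ratio scale.

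With the replicate number as a block, 2405 changed on the CPM scale and 2203 on the median-ratio scale. The numbers did not pair the samples: deviations of same-numbered libraries from their stage means correlated at -0.060, -0.0064, -0.010, 0.207 and 0.025, and 1 of 5 numbers matched itself best. Depth limits low transcripts: entries under 1 CPM held 0.0598% of reads.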

Other observations

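Antimicrobial peptide and immune transcripts were low or scattered. Their counts are to be read beside 6.45% rises and 18.8% falls of all transcripts (CPM), and 9.5% and 13.6% (median ratio). Of 8 antimicrobial peptide genes in the table, 4 passed the minimum, 1 of them only through late L2 and 1 only through early L3. Of these 4, 2 rose and 1 fell on the CPM scale. Median-ratio scaling gave 2 rises and 1 fall, with median log2 fold changes of 0.64 (CPM) and 0.68 (median ratio). *Drsl5* was at 0.137, 0.189, 0.578, 0.206 and 0.283 CPM in the late L2 libraries. *Drsl5* in early L3 stood at 0.726, 2.36, 1.6, 5.29 and 1.68 CPM. *Drsl3* rose from 0.448 ± 0.302 to 1.62 ± 0.588 CPM (log2 fold change 1.18 on the CPM scale and 1.25 on the median-ratio scale) and *Drsl2* fell from 1.29 ± 0.842 to 0.025 ± 0.0252 CPM (log2 fold change -1.56 on the CPM scale and -1.53 on the median-ratio scale). Among the peptidoglycan recognition and Imd modulators, 21 of 22 passed the minimum, 1 of them only through early L3. Of these 21, 1 rose and 1 fell on the CPM scale. In median-ratio units 2 rose and 1 fell, with median log2 fold changes of 0.047 (CPM) and 0.18 (median ratio). *PGRP-SC2*, a secreted amidase, rose from 96.1 ± 37.6 to 229 ± 119.6 CPM (log2 fold change 1.23 on the CPM scale and 1.36 on the median-ratio scale) with overlapping stages, and lost its CPM-scale call without early L3 replicate 4 or without replicate 5. *Duox*, the dual oxidase, fell from 3.95 ± 0.652 to 2.28 ± 0.487 CPM (log2 fold change -0.68 on the CPM scale and -0.57 on the median-ratio scale).

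In carbon metabolism, *Pepck2* (phosphoenolpyruvate carboxykinase) rose from 27.8 ± 6.08 to 76.1 ± 15 CPM (log2 fold change 1.44 on the CPM scale and 1.57 on the median-ratio scale), *Men* (malic enzyme) rose from 274 ± 28.3 to 578 ± 124 CPM (log2 fold change 1.05 on the CPM scale and 1.18 on the median-ratio scale) and *Gpo1* (glycerophosphate oxidase) fell from 218 ± 35 to 91.7 ± 32.3 CPM (log2 fold change -1.30 on the CPM scale and -1.17 on the median-ratio scale). Of 24 genes on the list of glycolysis and gluconeogenesis, 2 rose and 1 fell on the CPM scale. By median ratio, 5 rose and 1 fell, with median log2 fold changes of 0.043 (CPM) and 0.17 (median ratio). Rises were 6.45% and 9.5% of all transcripts on these scales, and falls 18.8% and 13.6%.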
